A study of Mus musculus with 24 samples.

Results

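After contextual fear conditioning (CFC), in which a mouse learns that a chamber goes with a foot shock, RNA from the dorsal hippocampus was compared across all genes between CBP KIX/KIX and wild-type (WT) mice. The comparison takes every library that the labels place in the learning groups of RNA-Seq 2, which is 8 of the 24 libraries in the series, 4 per genotype and 1 per mouse. The labels give all mice as C57BL/6j males of 2 to 4 months, whereas the methods of the study name both sexes. *Ddx3y*, a gene of the Y chromosome, stood between 43.3 and 52.6 CPM in all 8 libraries. CBP KIX/KIX mice carry 3 point mutations in the KIX domain of both copies of *Crebbp* in the whole body, and the WT mice were their littermates. Both CFC groups were handled for 3 days, spent 2.5 min in the chamber up to the end of 1 shock to the feet (1.5 mA, lasting 2 s), and were euthanised 1 h after training, between ZT3 and ZT6, hours counted from lights on. RNA was selected for poly(A) tails and read as 100 bp pairs. For comparison, RNA-Seq 2 also holds 3 WT and 4 CBP KIX/KIX homecage mice that were handled and not shocked. RNA-Seq 1 holds 3 WT and 3 CBP KIX/KIX mice trained in the Morris water maze (MWM), read from RNA depleted of ribosomal RNA, so task, library type and run change together between CFC and MWM.

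CBP is a coactivator and histone acetyltransferase that transcription factors bring to promoters and enhancers, and its KIX domain is the surface that binds phosphorylated CREB, MYB and other activators. In hippocampal neurons, learning sets off a wave of activity-induced transcription, first of factors such as *Fos* and *Nr4a1* and then of effectors that act at synapses, and CREB sites lie at many of these genes. The circadian clock runs in the same cells as a loop in which CLOCK and its partners activate the *Per*, *Cry* and *Nr1d* genes through E-boxes, and the products of those genes repress the loop. Some clock genes, *Per1* among them, also answer to CREB.

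Total counts were 30143949, 43624180, 20568337 and 18157863 in WT CFC mice 1 to 4, and 37192465, 41605657, 18275223 and 16818087 in CBP KIX/KIX CFC mice 1 to 4. A floor of 3 counts corresponds to between 0.0688 and 0.178 CPM in these libraries, and it covers counting error only. CPM, the usual unit of counts relative to the library total, was here scaled by upper-quartile normalization, and fold changes are CBP KIX/KIX relative to WT on the log2 scale.

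Among the tissue and cell marker lists summed, the 8 libraries differed most in choroid plexus RNA. The 13 markers of choroid plexus, the tissue that secretes cerebrospinal fluid and lies beside the hippocampus, summed to 222, 6810, 2850 and 3080 CPM in the WT mice and to 227, 301, 6280 and 3480 CPM in the CBP KIX/KIX mice. WT mouse 1 and CBP KIX/KIX mice 1 and 2 thus held little of it, and the other 5 libraries held over 1000 CPM. All 13 markers were counted in every library, and *Ttr*, which encodes the thyroxine carrier transthyretin, made up 61.1% of the sum. The first principal component, with 41.9% of the variance, placed the same 3 libraries at −30.9, −26.5 and −27.6, away from the other 5. The groups overlapped in this sum, all 13 markers had log2 fold changes below 0 with a median of −0.62, and none had an unadjusted p under 0.05 in edgeR's quasi-likelihood test. DESeq2 called none of them. Results are therefore also given for the 5 libraries with choroid plexus RNA (3 WT and 2 CBP KIX/KIX mice), an alternative chosen after seeing the data.

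Across the transcriptome, the genotype difference after CFC was small. Of 17541 genes tested, 1 gene, *Papss2*, passed edgeR's quasi-likelihood test at a Benjamini-Hochberg adjusted p under 0.05, which is 0.0057% of genes. DESeq2, another tool for counts, called 18 genes, 15 lower and 3 higher in CBP KIX/KIX mice, and 2 RUVr factors of unwanted variation brought edgeR's count to 15, all lower. At an unadjusted p under 0.05, 352 genes were lower (2.01%) and 256 were higher (1.46%), so 57.9% of these 608 genes were lower. With all 15 RNA-Seq 2 libraries in 1 fit that share turned to 48.5%, and the 5 libraries with choroid plexus RNA gave 1092 genes at this p. All 4 CBP KIX/KIX mice lay below all 4 WT mice in 220 genes (1.25%) and above them in 220 genes (1.25%). Among the 15314 genes with a mean of at least 1 CPM, the median absolute log2 fold change was 0.048, the 95th percentile was 0.26, and 12 genes exceeded 1.

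**Figure D1:**
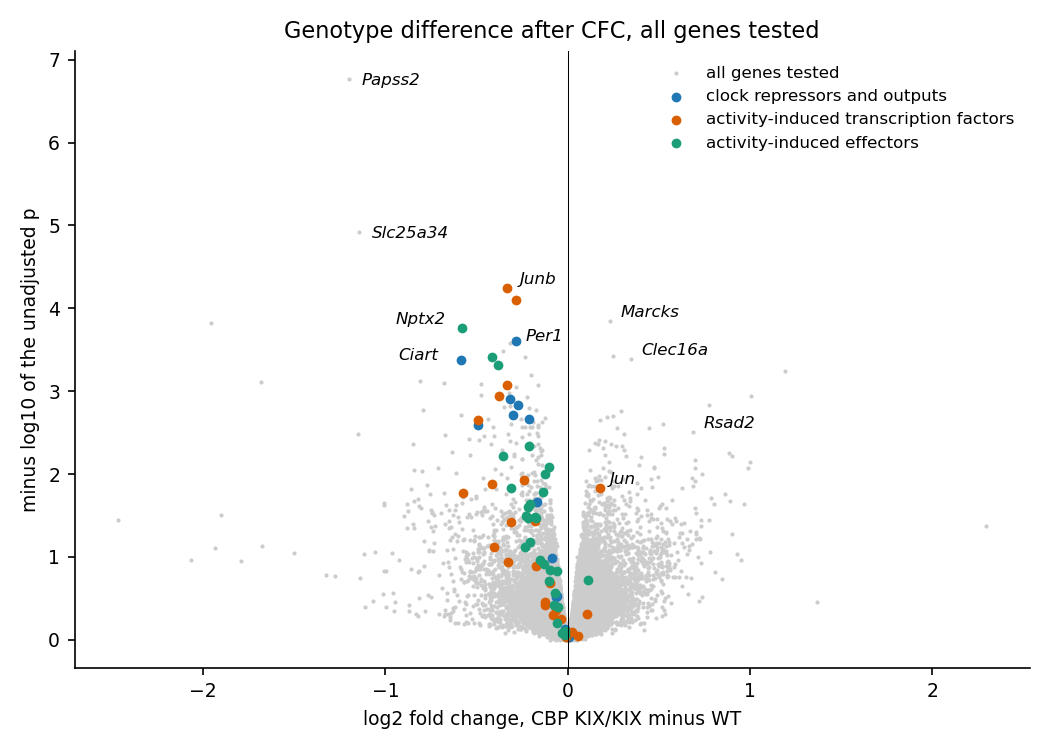
Genotype difference after CFC for all 17541 genes tested, with the log2 fold change (CBP KIX/KIX minus WT) on the x axis and minus log10 of the unadjusted p on the y axis. *Papss2* and *Slc25a34* stand above all other genes, and most members of the clock repressor and activity-induced lists, in colour, lie left of 0.

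*Papss2* makes PAPS, the activated sulfate that sulfotransferases use as their donor. *Papss2* (ENSMUSG00000024899.6, chr19:32595790-32667187 on the plus strand of GRCm38) was counted at 16.3, 18.9, 17.7 and 20.1 CPM in WT mice and at 6.86, 7.94, 8.86 and 8.26 CPM in CBP KIX/KIX mice. The highest CBP KIX/KIX mouse lay far below the lowest WT mouse, and neither group contained a stray library. The mean fell from 18.2 ± 1.62 to 7.98 ± 0.839 CPM (SD, n = 4 per group), a log2 fold change of −1.20 (SE 0.0973, edgeR's quasi-likelihood test, adjusted p = 0.00299). It was called with each of the 8 libraries left out in turn and in the 5 libraries with choroid plexus RNA. In bulk tissue, fewer cells of a type and less RNA per cell cannot be told apart.

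The rest of the sulfate pathway showed no common direction. Of 31 genes of sulfate activation and sulfate transfer, all tested, 15 lay below 0 and 16 above, with a median log2 fold change of 0.00047 beside 0.0019 over all genes. *Papss2* was the single member called. *Chst8*, a carbohydrate sulfotransferase, had a log2 fold change of −0.14 (SE 0.0582), *Chst10*, which makes the HNK-1 sugar, had 0.10 (SE 0.0388), and *Ndst2*, an enzyme of heparan sulfate synthesis, had 0.11 (SE 0.05). These 3 were the other members at an unadjusted p under 0.05, and none of the 3 was called. With *Papss2* this makes 2 lower and 2 higher of 31, beside 2.01% and 1.46% of all genes. *Sult4a1*, a neuronal sulfotransferase and the most counted member, averaged 371 ± 17.8 CPM in WT and 358 ± 24.5 CPM in CBP KIX/KIX mice.

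*Slc25a34*, a member of the mitochondrial carrier family, came next by p. *Slc25a34* (ENSMUSG00000040740.7, chr4:141618824-141623821 on the minus strand) stood at 4.80, 5.56, 5.01 and 4.10 CPM in WT mice and at 1.78, 2.26, 2.23 and 2.67 CPM in CBP KIX/KIX mice. The groups did not overlap, at a lower count and with a narrower gap than in *Papss2*. The means were 4.87 ± 0.606 and 2.24 ± 0.364 CPM, and the log2 fold change of −1.15 (SE 0.146) missed the threshold in edgeR's quasi-likelihood test (adjusted p = 0.104). It was called by DESeq2, with 2 RUVr factors, without a filter on low counts, and with all 15 RNA-Seq 2 libraries. Other carriers did not share its size. Of 41 Slc25a genes tested, 25 lay below 0, the median was −0.018, 2 were lower and 2 higher at an unadjusted p under 0.05 (2.01% and 1.46% of all genes), and *Slc25a18*, a mitochondrial glutamate carrier with the lowest p among those above 0, had 0.18 (SE 0.0592).

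**Figure D2:**
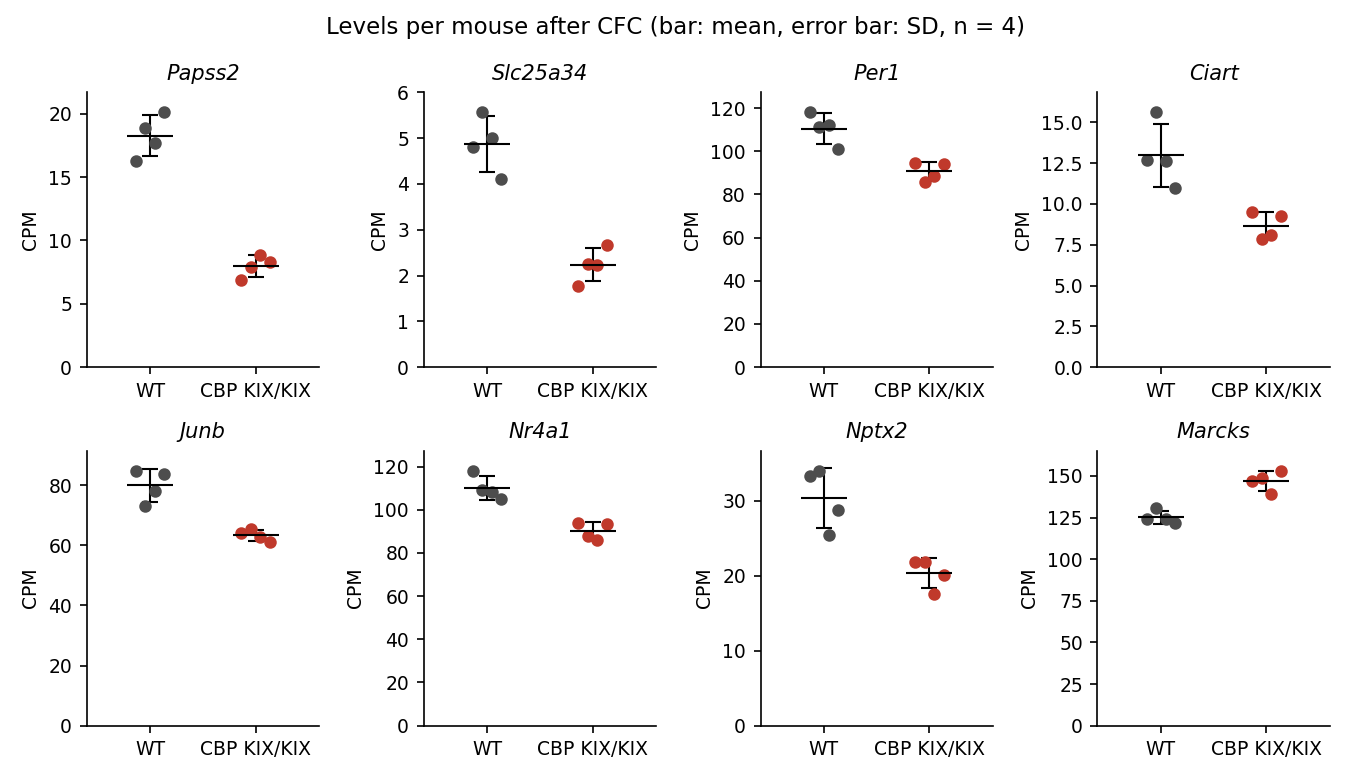
CPM of 8 genes in each mouse after CFC, with WT mice in grey and CBP KIX/KIX mice in red, 1 point per mouse, the mean as a bar and the SD as an error bar (n = 4). The 8 genes were chosen among those of lowest p in this comparison, so the lack of overlap in all 8 follows largely from the choice. Over all genes 1.25% did not overlap in each direction. *Papss2* has the widest gap for its level, with 16.3 CPM in the lowest WT mouse and 8.86 CPM in the highest CBP KIX/KIX mouse.

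The mutated gene itself and its partners differed little at the RNA level. *Crebbp* stood at 77.6, 69.4, 73.5 and 67.9 CPM in WT mice and at 76.3, 75.4, 78.0 and 68.8 CPM in CBP KIX/KIX mice. The groups overlapped almost fully, with means of 72.1 ± 4.38 and 74.6 ± 4.02 CPM and a log2 fold change of 0.05 (SE 0.0537). *Ep300*, the closely related coactivator p300, averaged 75.5 ± 2.73 and 76.8 ± 4.81 CPM, a log2 fold change of 0.02 (SE 0.0505). Of 11 genes of the CREB family, its CRTC coactivators and other factors that bind KIX, 10 lay above 0 and 1 below, with a median of 0.034 and no member at an unadjusted p under 0.05 in edgeR's quasi-likelihood test. DESeq2 called none of them. *Trp53*, which encodes p53, had the lowest p of this list, with 27.4 ± 0.561 CPM in WT and 29.3 ± 1.76 CPM in CBP KIX/KIX mice.

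Enzymes that add or remove histone acetyl groups were close to even. Of 22 acetyltransferases and deacetylases, 16 lay above 0, the median was 0.015, and 3 deacetylases were lower at an unadjusted p under 0.05, beside 2.01% of all genes. *Hdac3*, a class I deacetylase, was at 105, 110, 101 and 103 CPM in WT and at 98.7, 96.6, 97.0 and 99.1 CPM in CBP KIX/KIX mice. All 4 CBP KIX/KIX mice lay below the lowest WT mouse, by a small margin, and the log2 fold change was −0.10 (SE 0.0358). *Hdac5* and *Hdac9*, both class IIa deacetylases, had −0.13 (SE 0.0552) and −0.16 (SE 0.0581), with overlapping groups. None of the 3 was called by either tool.

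Clock genes that repress the loop or carry its output were lower in CBP KIX/KIX mice as a list. All 14 were tested, 13 had log2 fold changes below 0, and the median was −0.19 beside 0.0019 over all genes. In the 5 libraries with choroid plexus RNA it was −0.22. At an unadjusted p under 0.05, 8 were lower and 0 were higher, where 2.01% and 1.46% of all genes were. In 7 the groups did not overlap, *Dbp*, *Nr1d1* and *Nr1d2* among them by narrow margins, where 1.25% of all genes lay that way. None of the 14 passed edgeR's quasi-likelihood test with Benjamini-Hochberg adjustment, and DESeq2 called *Per1* and *Ciart*. In edgeR, a depth block called *Dbp*, and 2 RUVr factors called *Nr1d1* and *Per1*.

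*Per1*, a core repressor that also responds quickly to CREB, stood at 118, 111, 112 and 101 CPM in WT mice and at 94.5, 85.8, 88.4 and 94.0 CPM in CBP KIX/KIX mice. The nearest mice of the 2 groups were WT mouse 4 and CBP KIX/KIX mouse 1, and no value overlapped. The log2 fold change was −0.29 (SE 0.0523, adjusted p = 0.492). *Per2* gave 47.8, 55.9, 50.1 and 43.2 CPM in WT and 37.6, 40.2, 41.5 and 39.3 CPM in CBP KIX/KIX mice, a log2 fold change of −0.32 (SE 0.0724). Again all WT mice lay above all CBP KIX/KIX mice. *Per3* gave 59.9, 65.5, 56.5 and 56.2 CPM against 46.7, 53.5, 50.6 and 46.9 CPM, a log2 fold change of −0.27 (SE 0.0629). The 3 *Per* genes thus lay between −0.32 and −0.27, each without overlap between groups.

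*Ciart*, a repressor that acts on CLOCK complexes, had the largest difference of the list. Its levels were 12.7, 15.6, 12.6 and 11 CPM in WT mice and 9.49, 7.84, 8.10 and 9.26 CPM in CBP KIX/KIX mice, a log2 fold change of −0.59 (SE 0.115, adjusted p = 0.492). *Dbp*, an output factor driven directly through E-boxes, was at 49.8, 53.2, 40.1 and 38.1 CPM in WT and at 38.0, 33.9, 28.4 and 28.4 CPM in CBP KIX/KIX mice. WT mouse 4 and CBP KIX/KIX mouse 1 nearly met in *Dbp*, at 38.1 and 38.0 CPM, and the log2 fold change was −0.49 (SE 0.124). *Nr1d1* and *Nr1d2*, which encode the REV-ERB repressors, had −0.30 (SE 0.0722) and −0.21 (SE 0.0529), with no overlap in either. *Bhlhe41* had −0.17 (SE 0.0624) with overlapping groups.

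Other repressors and outputs lay near 0. *Cry2* averaged 160 ± 10.3 and 151 ± 5.42 CPM, a log2 fold change of −0.09 (SE 0.0488), and *Cry1*, at 12.7 CPM in both groups, had 0.0088 (SE 0.0931). *Tef*, *Hlf* and *Bhlhe40* lay between −0.015 and −0.065. *Cry1* and *Tef* lay so close to 0 that their signs turned when single libraries were left out. On the activator side, 3 of 7 genes lay below 0 and 4 above, the median was 0.048, and edgeR gave no gene an unadjusted p under 0.05, nor did DESeq2 call one. *Arntl*, which encodes BMAL1, averaged 37.9 ± 2.52 in WT and 40.9 ± 1.59 CPM in CBP KIX/KIX mice, a log2 fold change of 0.11 (SE 0.0554), and *Clock* had 0.05 (SE 0.0498).

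**Figure D3:**
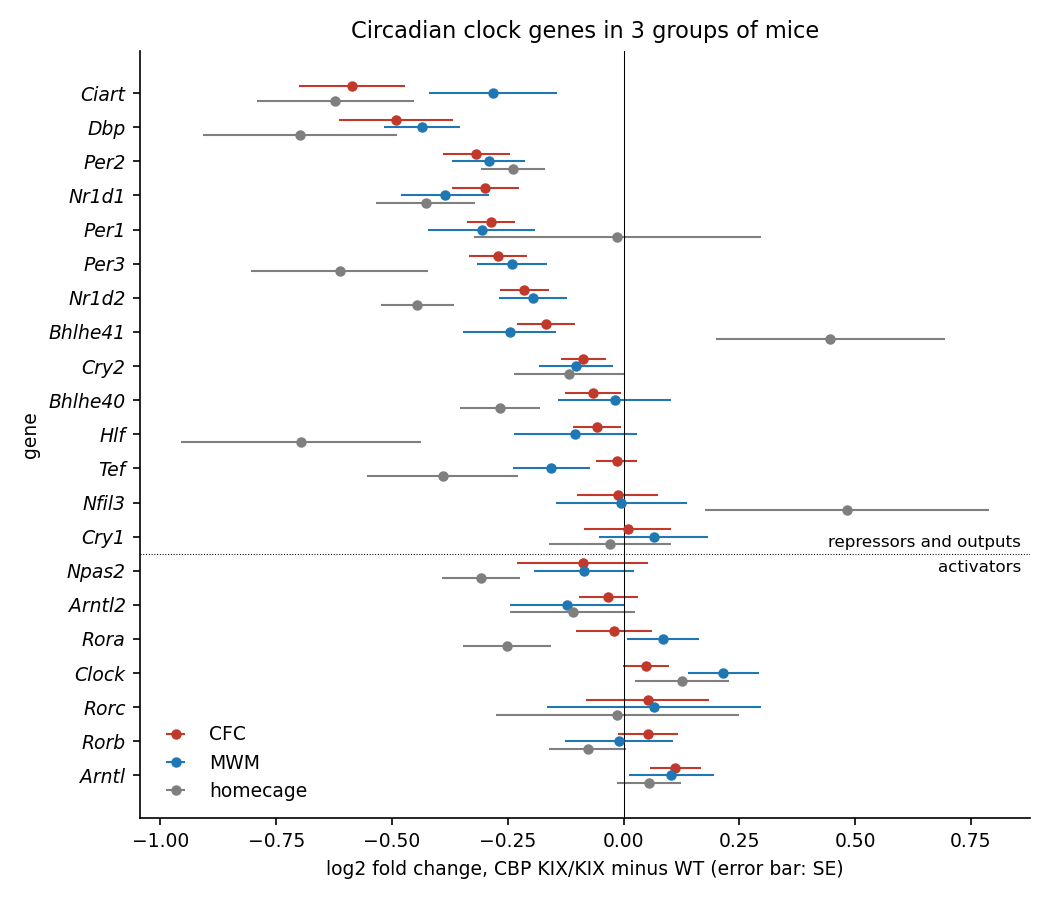
Log2 fold change (x axis, CBP KIX/KIX minus WT, error bar SE) of 21 clock genes (y axis) in CFC, MWM and homecage mice, each fitted alone. Repressors and outputs, above the dotted line, reach −0.59 after CFC in *Ciart*, and activators, below it, lie near 0.

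The same clock genes were compared in mice that shared no library with the CFC groups. The median of the 14 repressors and outputs was −0.219 in MWM mice and −0.329 in homecage mice. The choroid plexus markers had medians of 0.508 in MWM and 0.522 in homecage mice, and −0.69 and −1.64 in the homecage without CBP KIX/KIX mouse 3 and without mice 3 and 4. The part of this tissue in the clock medians was not tested. *Dbp* had −0.49 after CFC, −0.44 after MWM and −0.70 in the homecage. *Nr1d1* had −0.30, −0.39 and −0.43, and *Per2* had −0.32, −0.29 and −0.24. For these 3 genes the log2 fold change kept its sign in all 3 groups of mice at an unadjusted p under 0.05. *Per1* differed in this respect, with −0.29 after CFC, −0.31 after MWM and −0.01 (SE 0.310) in the homecage. There CBP KIX/KIX homecage mouse 3 stood at 133 CPM and the other 3 between 46.4 and 75.5 CPM. WT homecage mice stood between 72.2 and 86.2 CPM, so the homecage value near 0 leaned on mouse 3. The interaction of genotype and training was not called for *Per1* (−0.26, SE 0.327, adjusted p = 0.967 in edgeR's quasi-likelihood test).

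Activity-induced transcription factors were also lower as a list. All 24 were tested, 20 lay below 0, and the median log2 fold change was −0.18. It was −0.244 in the 5 libraries with choroid plexus RNA. At an unadjusted p under 0.05, 10 were lower and 1 was higher, beside 2.01% and 1.46% of all genes. In 6 the groups did not overlap, all 6 with lower values in CBP KIX/KIX mice, beside 1.25% of all genes. No member passed edgeR's quasi-likelihood test with adjustment, and DESeq2 called *Junb*, *Nr4a1* and *Fosl2*. With 2 RUVr factors edgeR called the same 3, and without a filter on low counts it called *Junb*.

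*Junb*, an AP-1 subunit, had the lowest p of this list. It stood at 84.7, 73.1, 78.1 and 83.6 CPM in WT mice and at 63.9, 65.4, 62.7 and 61.0 CPM in CBP KIX/KIX mice. The CBP KIX/KIX mice lay close together below the lowest WT mouse, with a log2 fold change of −0.33 (SE 0.0510, adjusted p = 0.335). *Nr4a1*, an orphan nuclear receptor, gave 118, 109, 108 and 105 CPM in WT and 93.9, 87.9, 86.2 and 93.5 CPM in CBP KIX/KIX mice, a log2 fold change of −0.29 (SE 0.0454, adjusted p = 0.343). Its groups were again fully separate. *Fosl2*, a FOS relative, gave 64.0, 63.7, 62.2 and 63.4 CPM in WT and 53.6, 42.5, 50.2 and 55.2 CPM in CBP KIX/KIX mice, a log2 fold change of −0.33 (SE 0.0719). WT mice were nearly identical in *Fosl2*, and the CBP KIX/KIX mice were spread.

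*Fos* itself, the standard marker of recent neuronal activity, stood at 33.2, 24.9, 33.1 and 33.9 CPM in WT mice and at 22.1, 18, 25 and 24.2 CPM in CBP KIX/KIX mice. WT mouse 2 and CBP KIX/KIX mouse 3 overlapped by a narrow margin, and the log2 fold change was −0.49 (SE 0.121). *Maff*, a small MAF factor near 1 CPM, had −0.57 (SE 0.201), and *Egr2*, a zinc-finger factor, had −0.41 (SE 0.138). *Csrnp1*, *Ier2*, *Fosb* and *Egr3* had log2 fold changes between −0.38 and −0.18. Not all factors of this kind were lower. *Egr1*, the most counted, gave 183, 166, 174 and 172 CPM in WT and 194, 166, 160 and 157 CPM in CBP KIX/KIX mice, with overlap and a log2 fold change of −0.04 (SE 0.0642). *Npas4*, a factor restricted to neurons, averaged 22.7 ± 4.46 and 20.8 ± 1.94 CPM, and *Jun*, the partner of FOS and JUNB in AP-1, averaged 115 ± 7.24 and 129 ± 9.54 CPM, a log2 fold change of 0.18 (SE 0.0603). *Jun* was the single factor higher at an unadjusted p under 0.05.

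Effectors, which carry the response to synapses and signalling, showed the same direction in more members. Of 30 tested, 29 lay below 0, the median was −0.145 (−0.123 in the 5 libraries with choroid plexus RNA), 15 were lower at an unadjusted p under 0.05 and 0 higher (2.01% and 1.46% of all genes), and in 8 the groups did not overlap, with lower values in CBP KIX/KIX mice (1.25% of all genes). None passed edgeR's quasi-likelihood test with adjustment, and DESeq2 called *Nptx2* and *Dusp1*. *Nptx2* was also called by edgeR with a replicate block, with a depth block, with 2 RUVr factors and without a filter on low counts. *Nptx2*, a secreted pentraxin that gathers AMPA receptors, stood at 33.3, 34.0, 25.5 and 28.8 CPM in WT mice and at 21.9, 21.9, 17.6 and 20.1 CPM in CBP KIX/KIX mice. The lowest WT mouse lay above the highest CBP KIX/KIX mouse, and the log2 fold change was −0.58 (SE 0.101, adjusted p = 0.433).

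Feedback phosphatases and growth-arrest genes belong to the same wave. *Dusp1*, a phosphatase that ends MAP kinase signals, gave 27.4, 24.0, 24.2 and 26.3 CPM in WT and 20.3, 16.4, 20.2 and 19.7 CPM in CBP KIX/KIX mice, a log2 fold change of −0.42 (SE 0.0805). *Gadd45b*, a stress and activity gene linked to DNA demethylation, gave 15.6, 13.1, 14.1 and 15.2 CPM against 11.1, 11.2, 10.5 and 11.5 CPM, a log2 fold change of −0.38 (SE 0.0765). Neither gene overlapped between groups. *Sorcs3*, a sorting receptor at synapses, *Plk2*, a kinase of synaptic scaling, and *Ptprn*, a dense-core vesicle protein, had −0.21, −0.10 and −0.13, also without overlap. *Trib1* and *Rasl11b* did not overlap either. When scaled with all 15 RNA-Seq 2 libraries, *Trib1* overlapped, at 12 CPM in WT mouse 3 and 12.1 CPM in CBP KIX/KIX mouse 1. *Vgf*, *Pcsk1* and *Btg2* lay between −0.35 and −0.21 with overlapping groups.

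The best known synaptic effectors were not among those that separated the groups. *Arc*, which regulates AMPA receptor uptake, stood at 267, 210, 219 and 222 CPM in WT and at 224, 241, 211 and 194 CPM in CBP KIX/KIX mice. The groups overlapped, and the log2 fold change of −0.08 (SE 0.0834) came to 0.0057 without WT CFC mouse 1. *Bdnf*, the neurotrophin, averaged 48.9 ± 3.66 and 44.1 ± 5.38 CPM, a log2 fold change of −0.15 (SE 0.0884). *Nrn1*, a growth-promoting surface protein, was the single effector above 0, with 0.11 (SE 0.0811) and 288 CPM in CBP KIX/KIX mouse 2 against at most 236 CPM in any other mouse.

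Per mouse, the 3 lists separated the genotypes as lists. The median deviation of the clock repressors and outputs from the WT mean was 0.012, 0.079, −0.013 and −0.097 in WT mice and −0.142, −0.120, −0.209 and −0.192 in CBP KIX/KIX mice on the log2 scale. For the activity-induced factors it was 0.094, −0.086, −0.027 and −0.032 in WT and −0.167, −0.144, −0.262 and −0.239 in CBP KIX/KIX mice. For the effectors it was 0.032, −0.0075, −0.042 and 0.017 in WT and −0.142, −0.130, −0.159 and −0.122 in CBP KIX/KIX mice. In each list all 4 CBP KIX/KIX mice lay below all 4 WT mice. Since the lists were chosen with earlier results known, these are descriptions without a test.

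**Figure D4:**
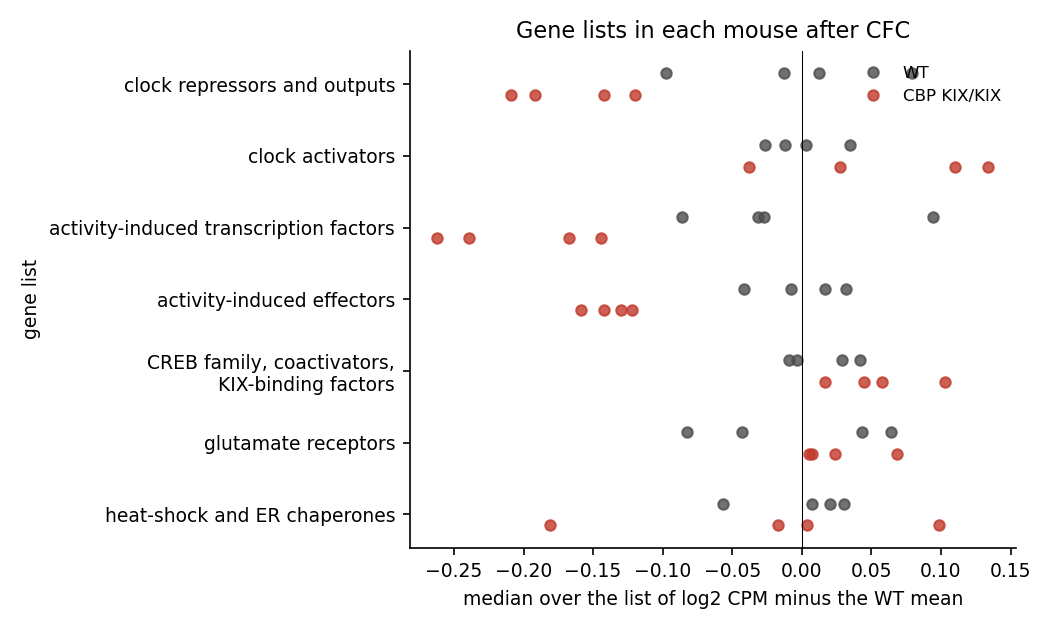
Median over each gene list (y axis) of the log2 CPM in 1 mouse minus the WT mean (x axis), 1 point per mouse, WT in grey and CBP KIX/KIX in red. In clock repressors and both activity-induced lists the CBP KIX/KIX mice lie at −0.120 or lower and the WT mice at −0.097 or higher, and in the other lists the groups overlap.

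In homecage mice the activity-induced lists pointed the other way, with medians of 0.454 for factors and 0.461 for effectors, and this rested on few animals. *Fos* stood at 2.86, 1.83, 117 and 4.77 CPM in CBP KIX/KIX homecage mice and between 3.44 and 5.18 CPM in WT homecage mice, so CBP KIX/KIX homecage mouse 3 lay above even the CFC mice. *Nptx2* stood at 18.8, 39.2, 140 and 164 CPM in CBP KIX/KIX homecage mice, with mice 3 and 4 high. Without mouse 3 the homecage medians were −0.073 and 0.101, and without mice 3 and 4 they were −0.130 and −0.0647. The clock repressor median was −0.344 without mouse 3 and −0.276 without mice 3 and 4. CBP KIX/KIX homecage mouse 2, kept in these fits, also stood apart in some genes. It had *Penk* at 126 CPM and *Gfap* at 618 CPM, where WT homecage mice lay at 22.8 to 30.5 and at 330 to 372 CPM. In MWM mice the medians were −0.185 for factors and −0.0899 for effectors. The CFC and homecage differences were compared gene by gene by the interaction test.

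Promoters of these lists were searched because their members lie on the same side of 0. RefSeq windows of 300 bases, 250 before and 50 after a gene's start on GRCm38.p6, were searched on both strands for the full CREB site TGACGTCA, its half-site TGACG and the E-box CACGTG, and each full site also holds the half-site on both strands. Of all 32851 windows, 1.79% held the full site, 20.8% the half-site and 7.15% the E-box. By gene, 12462 tested genes had at least 1 window, and 3.33%, 33.1% and 11.1% of them held each motif. Of 23 effectors with a window, 7 held the full site (30.4%), 16 the half-site (69.6%) and 6 the E-box (26.1%). Of 18 activity-induced factors, 1 held the full site, 14 the half-site (77.8%) and 3 the E-box. Of 12 clock repressors and outputs, 1 held the full site, 5 the half-site (41.7%) and 5 the E-box (41.7%), and of 6 activators none held any of the 3. Among effectors with a window, 11 were lower at an unadjusted p under 0.05. Of these 4 held the full site, 8 the half-site and 3 the E-box. Among the factors with a window 8 were lower at that p, and 1 held the full site, 7 the half-site and 2 the E-box. CREB sites lie at many activity-induced genes, so motif shares of these lists were not a test of the genotype difference. A match is a description of letters in a window, not a bound site.

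The windows below show what these counts consist of, for the called gene and for 5 named genes of the lists, with each motif in capitals and each window written 5′ to 3′ on the strand of its gene. *Papss2* is shown because it was called, and neither of its 2 windows held any of the 3 motifs, of which the first is given. *Ciart* is shown for its 3 E-boxes, *Per1* for 1 half-site and 1 E-box in the first of its 2 windows (the second holds 1 half-site), *Nr4a1* for its 4 half-sites, read as CGTCA on this strand, *Junb* for its 1 half-site, and *Dusp1* for a full site beside an E-box. The 5 list genes were chosen because they hold motifs. *Dbp*, *Nr1d1*, *Nr1d2*, *Per3* and *Fosl2* held none of the 3, and of the 7 clock repressors and outputs with a window that were lower at an unadjusted p under 0.05, 1 held the half-site and 3 the E-box. *Per2* and *Nptx2* had no window.
Papss2, chr19:32595465-32595764, plus strand: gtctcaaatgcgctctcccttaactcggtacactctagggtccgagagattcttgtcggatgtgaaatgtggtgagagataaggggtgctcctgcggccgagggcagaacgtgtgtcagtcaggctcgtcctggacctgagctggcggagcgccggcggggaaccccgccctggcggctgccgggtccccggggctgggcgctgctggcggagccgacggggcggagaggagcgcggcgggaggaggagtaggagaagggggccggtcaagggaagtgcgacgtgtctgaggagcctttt
Per1, chr11:69098699-69098998, plus strand: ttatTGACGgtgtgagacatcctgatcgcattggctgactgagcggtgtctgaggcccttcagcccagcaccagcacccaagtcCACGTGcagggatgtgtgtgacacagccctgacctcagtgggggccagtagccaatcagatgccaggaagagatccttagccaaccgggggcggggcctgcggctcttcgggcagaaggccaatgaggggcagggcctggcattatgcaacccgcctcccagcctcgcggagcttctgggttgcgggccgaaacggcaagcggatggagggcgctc
Ciart, chr3:95882179-95882478, minus strand: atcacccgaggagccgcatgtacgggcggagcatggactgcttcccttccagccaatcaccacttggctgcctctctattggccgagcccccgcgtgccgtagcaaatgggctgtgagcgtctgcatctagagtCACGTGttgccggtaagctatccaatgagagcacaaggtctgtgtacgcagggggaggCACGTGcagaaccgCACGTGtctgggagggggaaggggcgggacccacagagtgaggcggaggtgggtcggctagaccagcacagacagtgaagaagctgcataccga
Junb, chr8:84978699-84978998, minus strand: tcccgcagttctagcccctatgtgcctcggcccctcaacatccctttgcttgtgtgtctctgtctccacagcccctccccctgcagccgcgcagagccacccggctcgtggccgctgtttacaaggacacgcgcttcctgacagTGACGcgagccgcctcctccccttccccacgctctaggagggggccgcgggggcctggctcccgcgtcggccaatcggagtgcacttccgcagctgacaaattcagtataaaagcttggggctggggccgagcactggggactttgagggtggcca
Nr4a1, chr15:101266596-101266895, plus strand: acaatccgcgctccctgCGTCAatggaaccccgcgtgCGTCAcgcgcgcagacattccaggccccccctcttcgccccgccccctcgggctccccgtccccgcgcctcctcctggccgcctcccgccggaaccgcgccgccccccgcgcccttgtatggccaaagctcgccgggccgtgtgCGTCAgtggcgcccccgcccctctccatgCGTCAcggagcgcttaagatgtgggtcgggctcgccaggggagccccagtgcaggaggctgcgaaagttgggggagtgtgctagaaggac
Dusp1, chr17:26508423-26508722, minus strand: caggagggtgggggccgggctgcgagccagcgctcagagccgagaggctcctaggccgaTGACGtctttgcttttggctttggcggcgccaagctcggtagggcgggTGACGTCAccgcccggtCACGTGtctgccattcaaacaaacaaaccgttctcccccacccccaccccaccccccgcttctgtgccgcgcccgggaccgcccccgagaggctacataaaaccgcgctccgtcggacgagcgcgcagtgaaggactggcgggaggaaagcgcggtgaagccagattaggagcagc

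Outside the clock and activity lists, genes of mixed kinds had the lowest p on the lower side at a mean of at least 1 CPM. *Il33*, a cytokine of the IL-1 family held in glial nuclei, stood at 59.1, 70.3, 65.4 and 68.1 CPM in WT mice and at 49.4, 54.5, 52.9 and 54.5 CPM in CBP KIX/KIX mice, a log2 fold change of −0.32 (SE 0.0584, adjusted p = 0.492). *Gstm1*, a glutathione transferase, gave 176, 198, 171 and 179 CPM in WT and 127, 158, 140 and 141 CPM in CBP KIX/KIX mice, a log2 fold change of −0.36 (SE 0.0675, adjusted p = 0.492). *Tspan2*, a tetraspanin of myelinating cells, averaged 125 ± 4.79 and 106 ± 5.60 CPM, a log2 fold change of −0.23 (SE 0.0453). In all 3 genes every CBP KIX/KIX mouse lay below every WT mouse, and none passed edgeR's quasi-likelihood test with adjustment. They were named for their low p, so this separation adds no support. Over all genes 1.25% lay that way. DESeq2 called all 3, and edgeR with 2 RUVr factors called *Il33* and *Gstm1*. *Gm48678*, a gene without a common name, had a lower p than these 3 at a mean under 1 CPM. It gave 1.01, 2.18, 0.827 and 1.83 CPM in WT and 0.372, 0.365, 0.381 and 0.416 CPM in CBP KIX/KIX mice, a log2 fold change of −1.96 (SE 0.336, adjusted p = 0.433), and was called by DESeq2 and without a filter on low counts. *Gm48678* had −0.48 after MWM and −1.47 in the homecage.

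On the higher side, *Marcks*, which binds actin and the membrane and is a main substrate of protein kinase C, had the lowest p. It gave 124, 131, 124 and 122 CPM in WT mice and 147, 149, 139 and 153 CPM in CBP KIX/KIX mice. All 4 CBP KIX/KIX mice lay above all WT mice, as in 1.25% of all genes, and the log2 fold change was 0.23 (SE 0.0393, adjusted p = 0.433). *Rreb1*, a zinc-finger factor of the RAS pathway, averaged 162 ± 7.72 and 192 ± 9.75 CPM, a log2 fold change of 0.25 (SE 0.0477). *Alcam*, an adhesion molecule of growing axons, averaged 116 ± 8.16 and 138 ± 9.53 CPM, a log2 fold change of 0.25 (SE 0.0610). *Calb1*, the calcium buffer calbindin, which is abundant in dentate granule cells, averaged 121 ± 8.65 and 147 ± 13.7 CPM, a log2 fold change of 0.27 (SE 0.0693). None of these was called by edgeR, and DESeq2 called *Marcks* and *Rreb1*.

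*Cited2* is of interest as a protein that binds another domain of CBP. It stood at 27.2, 27.7, 24.4 and 25.6 CPM in WT mice and at 30.9, 31.1, 30.6 and 29.5 CPM in CBP KIX/KIX mice, a log2 fold change of 0.22 (SE 0.0528). The groups did not overlap. *Adra2a*, the alpha-2A adrenergic receptor, had 0.45 (SE 0.115), *Lgr6*, a receptor for R-spondins, had 0.53 (SE 0.132), and *Trp53i11* and *Shroom1* had 0.29 (SE 0.0699) and 0.31 (SE 0.0810). *Prr13* had 0.18 (SE 0.0443). *Rsad2*, an antiviral gene induced by interferon, rested on few counts, with 1.24 ± 0.162 CPM in WT and 2.04 ± 0.387 CPM in CBP KIX/KIX mice, a log2 fold change of 0.69 (SE 0.179). In each of these genes all 4 CBP KIX/KIX mice lay above all 4 WT mice, and none was called by either tool. The genes were named for their low p in this same comparison, so their separation adds no support. Over all genes 1.25% lay that way.

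Neuropeptide genes included members on both sides. Of 18 tested, 13 lay below 0, the median was −0.0725, and 3 were lower and 3 higher at an unadjusted p under 0.05, beside 2.01% and 1.46% of all genes. *Crhbp*, which binds and holds back corticotropin-releasing hormone, gave 27.0, 38.1, 32.4 and 36.3 CPM in WT mice and 21.8, 24.9, 24.2 and 25.6 CPM in CBP KIX/KIX mice. The groups were separate, and the log2 fold change was −0.47 (SE 0.102, adjusted p = 0.615). *Sst*, the interneuron peptide somatostatin, gave 186, 207, 174 and 172 CPM against 155, 149, 156 and 167 CPM, a log2 fold change of −0.24 (SE 0.0603), and *Nts*, neurotensin, had −0.34 (SE 0.120). *Penk*, the enkephalin precursor, gave 26.9, 26.0, 26.0 and 26.8 CPM against 28.1, 31.8, 30.2 and 35.0 CPM, a log2 fold change of 0.24 (SE 0.0655). The groups of *Sst*, *Nts* and *Penk* did not overlap, as in 1.25% of all genes in each direction. *Adcyap1*, which encodes PACAP, had 0.52 (SE 0.226) with overlap, and *Trh* rested on CBP KIX/KIX mouse 4, at 10.7 CPM where the other 7 mice lay under 1 CPM. DESeq2 called *Crhbp* alone of these.

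Other lists of neuronal signalling showed few differences. None of 20 genes of cAMP and protein kinase A signalling, 22 glutamate receptor genes and 24 genes of vesicle release had an unadjusted p under 0.05 in edgeR's quasi-likelihood test, and DESeq2 called none of them. Of the cAMP list 17 genes lay below 0, with a median of −0.0242, and *Prkar1b*, a regulatory subunit of protein kinase A, had the lowest p with −0.10 (SE 0.0472). The glutamate receptors had a median of 0.0204 with 15 of 22 above 0. The vesicle genes had a median of −0.0352 with 16 of 24 below 0, and *Cplx1*, complexin 1, had −0.11 (SE 0.0769). Of 20 GABA genes 12 lay below 0, with a median of −0.0174, and *Abat*, which breaks GABA down, had −0.18 (SE 0.0580), the single member at an unadjusted p under 0.05. Of 77 potassium channel genes 43 lay below 0, with a median of −0.0198, and *Kcnip3*, a calcium-binding partner of these channels, had −0.21 (SE 0.0767), the single member at that p. Over all genes 2.01% were lower at that p.

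Stress, defence and adhesion lists differed in direction, with antioxidant genes mostly below 0 and interferon genes mostly above 0. The 16 glucocorticoid-responsive genes and the 22 chaperones had 8 and 11 members below 0, medians of −0.0283 and 0.00069, and no member at an unadjusted p under 0.05 in edgeR or called by DESeq2. Of 18 antioxidant genes 16 lay below 0, with a median of −0.0486, and besides *Gstm1* the plasma selenium carrier gene *Selenop* had an unadjusted p under 0.05, with 0.16 (SE 0.0516). Of 13 genes of MHC class I and interferon responses 10 lay above 0, with a median of 0.0756. *Irf7*, a master factor of interferon genes, gave 1.45, 1.5, 1.65 and 1.55 CPM in WT mice and 1.97, 2.05, 2.72 and 2.20 CPM in CBP KIX/KIX mice, a log2 fold change of 0.53 (SE 0.147). Its groups did not overlap, at a low level. Of 23 adhesion genes 14 lay above 0, with a median of 0.0137, and *Alcam* and *Pcdh19*, at 0.25 (SE 0.108), had an unadjusted p under 0.05. At that p 1 antioxidant gene was lower and 1 higher, and 1 gene of the interferon list and 2 of the adhesion list were higher, beside 2.01% lower and 1.46% higher of all genes.

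Lists of protein synthesis and respiration had medians close to 0. Of 81 ribosomal protein genes 62 lay above 0, with a median of 0.0169, and of 32 genes of the mitochondrial genome 21 lay above 0, with a median of 0.0148. Of 82 nuclear genes of the respiratory chain 68 lay below 0, with a median of −0.0282. Single members lay further out, from −0.0734 to 0.931 in the ribosomal list, from −0.341 to 0.347 in the mitochondrial genome and from −0.873 to 0.0397 in the respiratory chain. None of these genes had an unadjusted p under 0.05 in edgeR's quasi-likelihood test or was called by DESeq2.

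Markers of the hippocampal fields were present in both groups. Those of CA1, CA2, CA3, the dentate gyrus and interneurons were all counted in every library, and no sum separated the groups. The 5 CA1 markers summed to 692, 627, 634 and 566 CPM in WT mice and to 620, 484, 569 and 525 CPM in CBP KIX/KIX mice, led by *Mpped1*. All 5 lay below 0, with a median log2 fold change of −0.20, and *Fibcd1* had −0.20 (SE 0.0873). The CA1 median was −0.301 in MWM mice and −0.399 in homecage mice. The 8 interneuron markers summed to 959, 951, 891 and 871 CPM in WT and to 913, 795, 837 and 858 CPM in CBP KIX/KIX mice, led by *Gad1*, and all 8 lay below 0 with a median of −0.0891. The part of either list in the results above was not tested.

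Other regions and glia gave overlapping sums too. The 6 dentate markers summed to between 321 and 365 CPM in WT mice and between 311 and 445 CPM in CBP KIX/KIX mice, with mouse 2 highest, and the dentate marker *Pdzd2* had −0.32 (SE 0.0742) without overlap. The CA3 sums lay between 687 and 708 CPM and between 659 and 746 CPM, and the CA2 sums between 179 and 186 CPM and between 170 and 211 CPM. The 9 markers of thalamus, habenula and striatum summed to between 135 and 160 CPM over all 8 mice. The 10 astrocyte markers, led by *Slc1a2*, summed to between 4490 and 4670 CPM in WT and between 4420 and 4760 CPM in CBP KIX/KIX mice, and 5 of the 10 lay below 0. Among them *Aldh1l1*, an enzyme of folate metabolism, had −0.28 (SE 0.0774) and *Gja1*, the gap junction protein connexin 43, had 0.12 (SE 0.0328), each without overlap, and *Gfap*, the astrocyte filament protein, had −0.22 (SE 0.0941) with overlap. The 10 oligodendrocyte markers, led by *Mbp*, summed to between 5200 and 6160 CPM and between 4850 and 6160 CPM, 8 lay below 0, and *Opalin*, a myelin membrane protein, had −0.33 (SE 0.0861). Sums of oligodendrocyte precursor, microglial, endothelial, ependymal and blood markers overlapped between groups, and *Cldn5*, the tight junction protein claudin 5, had 0.22 (SE 0.0827) with overlap. In 1 other endothelial marker the groups did not overlap, with higher values in CBP KIX/KIX mice. Of the astrocyte markers 2 were lower and 1 higher at an unadjusted p under 0.05, beside 2.01% and 1.46% of all genes. Groups without overlap made up 1.25% of all genes in each direction. The 7 meningeal markers, led by *Igf2*, ranged from 82.7 to 267 CPM and were lowest in the same 3 libraries as the choroid plexus markers.

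Genes near *Crebbp* on chromosome 16 may be inherited together with the mutant allele, which was not tested, so they were counted apart. Of 86 genes tested within 10 Mb, 45 lay below 0, the median was −0.0024, and 5 were lower and 1 higher at an unadjusted p under 0.05, beside 2.01% and 1.46% of all genes. *Clec16a*, a regulator of mitophagy, gave 114, 132, 137 and 114 CPM in WT mice and 162, 170, 152 and 149 CPM in CBP KIX/KIX mice, a log2 fold change of 0.35 (SE 0.0680, adjusted p = 0.492). The groups did not overlap, and DESeq2 called it. *Clec16a* had 0.28 after MWM and 0.41 in the homecage. *Tekt5* had −0.59 (SE 0.142) and *Emp2* −0.40 (SE 0.107), both without overlap. *Ppl*, *Srl* and *Abat* had −0.49, −0.21 and −0.18 with overlap. Sequence that lies beside the mutation and the mutation itself cannot be told apart here.

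Genes ranked in other mice lay mostly on the same side after CFC. Of the 100 genes with the lowest p for genotype in MWM mice, 91 had the same sign after CFC, 26 with an unadjusted p under 0.05 and none of the opposite sign at that p, and in 13 the CFC groups did not overlap. Over all genes, 2.01% were lower and 1.46% higher at that p, and 1.25% did not overlap in each direction. The Pearson correlation of the log2 fold changes across these genes was 0.606, a description since genes are not independent. Of the 100 genes ranked in homecage mice, 83 had the same sign, 21 with an unadjusted p under 0.05, and *Ngb*, neuroglobin, was the single one of the opposite sign at that p. In 16 the CFC groups did not overlap (the same shares over all genes apply), and the correlation was 0.632. With the homecage ranking made without CBP KIX/KIX homecage mice 3 and 4, 79 had the same sign and 21 of these an unadjusted p under 0.05. Over all genes tested in both, 54.9% shared a sign with MWM and 50.4% with the homecage.

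These shares moved with single libraries. The MWM share was 80 of 100 without WT CFC mouse 1 and also without CBP KIX/KIX CFC mouse 2. The count with an unadjusted p under 0.05 was 41 without CBP KIX/KIX CFC mouse 1 and 17 without CBP KIX/KIX CFC mouse 4. The homecage share was 65 of 100 without CBP KIX/KIX CFC mouse 2 and 56 of 100 without CBP KIX/KIX homecage mouse 1. The matching homecage count was 51 without CBP KIX/KIX CFC mouse 1, 13 without WT homecage mouse 1 and 12 without CBP KIX/KIX homecage mouse 1.

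*Papss2* and *Slc25a34* ranked within the first 3 genes by p in all 3 groups of mice. *Papss2* had −1.20 after CFC, −1.23 after MWM and −0.93 in the homecage, and edgeR's quasi-likelihood test called it in each (adjusted p = 0.00299, 0.0396 and 0.0165). *Slc25a34* had −1.15, −1.16 and −1.05 and was called after MWM (adjusted p = 0.0140) and not in the homecage (adjusted p = 0.189). The test called 3 of 21319 genes (0.0141%) after MWM and 2 of 18682 genes (0.0107%) in the homecage. The other genes called elsewhere were *Rbp3* after MWM, which was not tested after CFC, and *Col6a4* in the homecage, which had the lowest p there with −2.41 (SE 0.198) and had −0.69 (SE 0.551) after CFC. Of 17180 genes tested in all 3, 30 had the same sign and an unadjusted p under 0.05 in each, 22 lower and 8 higher. Besides those given above, *Gstm1* had −0.36, −0.18 and −0.45 after CFC, after MWM and in the homecage, *Nr1d2* had −0.21, −0.20 and −0.45, *Lgr6* had 0.53, 0.39 and 0.59, and *Irf7* had 0.53, 0.57 and 0.46. These 4 are examples chosen from the 30 after their values were seen.

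Tests of the difference between genotype effects found little. The interaction of genotype and training was called for 0 of 18851 genes (0%) by edgeR's quasi-likelihood test, with 903 at an unadjusted p under 0.05, and DESeq2 called 1, *Ngb*. *Ngb* averaged 3.07 ± 0.827 CPM in WT and 4.41 ± 0.569 CPM in CBP KIX/KIX mice after CFC, and its interaction was 1.69 (SE 0.300, adjusted p = 0.830). Without CBP KIX/KIX homecage mouse 1 the count of genes called was 63, and without any other single library it was 0. *Aspm*, a spindle gene of dividing cells, had an interaction of −2.18 (SE 0.498, adjusted p = 0.950), at under 1 CPM in every CFC mouse. *Nptx2* had −2.40 (SE 0.691, adjusted p = 0.950), and −0.80 without CBP KIX/KIX homecage mice 3 and 4, when edgeR called 0 genes and 561 had an unadjusted p under 0.05. The interaction of genotype and paradigm was called for 0 of 21489 genes (0%), with 1389 at an unadjusted p under 0.05, and DESeq2 called 0. *Sntn*, a gene of motile cilia, had −1.86 (SE 0.365) and *Ak4*, a mitochondrial adenylate kinase, had 0.42 (SE 0.0917), both with an adjusted p of 0.755. For *Papss2* the interaction was −0.26 (SE 0.127, adjusted p = 0.950) with training and 0.03 (SE 0.187, adjusted p = 0.984) with paradigm.

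Some counts are uncertain because genes overlap on opposite strands and the strand setting of the counting is not stated. Among the genes named this holds for *Junb* with *Prdx2*, *Dusp1* with *Ergic1*, *Nr1d1* with *Thra*, *Dbp* with *Sphk2*, *Ciart* with *C920021L13Rik*, *Jun* with *Junos*, *Irf7* with *Phrf1*, *Tspan2* with *Tshb* and *Gm48678* with *Itsn2*, and for others with genes that have no common name. *Gm48678*, *Gfap*, *Chst8*, *Ndst2*, *Hdac9*, *Nts*, *Trh*, *Adcyap1* and *Pcdh19* fall outside the rule for named genes and were chosen after their values were seen.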

How the data were processed

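The deposited table holds raw counts per gene for 24 libraries, made by the authors with STAR, SAMtools 1.6 and featureCounts 1.4.4 on mm10 (GRCm38). Neither the gene annotation used nor the strand option is given, and genes were placed with GENCODE M21, which holds 51633 of the 51826 identifiers. The 8 CFC libraries were grouped by the labels and fitted alone in R 4.3.3 with edgeR 4.0.16 (filterByExpr, upper-quartile normalization, quasi-likelihood test, Benjamini-Hochberg adjusted p under 0.05). DESeq2 1.42.0 was the other tool, and limma 3.58.1 was loaded with edgeR. The fits were tested on simulated data. Interactions took the homecage or MWM libraries as further groups. Gene lists are described by counts and medians. The members and lists were chosen with earlier results of these data known. Named genes are *Crebbp*, *Ep300* and each gene called in a main edgeR fit. They include the 12 lowest p in each direction at a mean of at least 1 CPM. Clock and activity-induced members, the leading members of other lists and the leading genes of each interaction are named too. So are genes within 10 Mb of *Crebbp* at an unadjusted p under 0.05. Genes called only in alternatives are not all named. 1 gene list is not reported here. Alternatives were TMM, DESeq2, other filters, replicate and depth blocks, 1 or 2 RUVr factors, GC normalization, all 15 RNA-Seq 2 libraries, and each library left out. The choroid plexus covariate, the 5 libraries with choroid plexus RNA, fits without CBP KIX/KIX homecage mice 3 and 4, and the MWM ranking with each MWM library left out were added after seeing the data.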

Additional observations from a re-analysis of the deposited data

Results flagged for a closer look

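A gap of 1 mouse to the other 3 of its group, as a share of the range of the group, exceeded Dixon's 95% limit in 13 of 228 groups of 4. Chance gives about 1 in 20. After CFC, CBP KIX/KIX mouse 2 was lowest in *Dusp1* (16.4 CPM, others 19.7 to 20.3) and in *Sorcs3* (42.3 CPM, others 47.7 to 48.2), and highest in *Nrn1* (288 CPM, others 221 to 230). The same mouse was highest in the summed markers of the dentate gyrus (445 CPM, others 311 to 327), of thalamus, habenula and striatum (160 CPM, others 144 to 146) and of oligodendrocyte precursors (277 CPM, others 240 to 244). WT mouse 2 was lowest in *Fos* at 24.9 CPM, where the other WT mice lay between 33.1 and 33.9 CPM. WT mouse 4 was highest in summed astrocyte markers at 4670 CPM, where the others lay between 4490 and 4510 CPM. CBP KIX/KIX mouse 1 was highest in *Nr4a2* (90.3 CPM, others 48.6 to 52.8), and CBP KIX/KIX mouse 4 in *Trh* (10.7 CPM, others 0.435 to 0.828). In the homecage, CBP KIX/KIX mouse 3 was highest in *Fos* (117 CPM, others 1.83 to 4.77), *Junb* (202 CPM, others 26.3 to 33.2) and *Nr4a1* (322 CPM, others 30 to 47.2). No gene named had an interaction with an adjusted p under 0.05 in edgeR's quasi-likelihood test.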

How the results depend on the processing

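*Papss2* was called in every alternative that was run, and its log2 fold change lay between −1.25 and −1.13 with single libraries left out. The count of genes called was 18 with DESeq2, 5 without a filter on low counts, 3 with a depth block (*Papss2*, *Dbp* and *Nptx2*), 15 with 2 RUVr factors (among them *Nr1d1*, *Per1*, *Fosl2*, *Nr4a1*, *Junb* and *Nptx2*) and 2 with all 15 RNA-Seq 2 libraries, and 1 with each CFC library left out. Genes at an unadjusted p under 0.05 numbered 957 without the filter, 1284 with 2 RUVr factors and 1092 in the 5 libraries with choroid plexus RNA. Of the genes at that p, 48.5% were lower with all 15 libraries. The cause of these shifts was not tested, except that no filter adds genes.

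The labels do not say that replicate numbers pair the mice. With a replicate block 2 genes were called, *Papss2* and *Nptx2*, and 862 had an unadjusted p under 0.05. Profiles of mice with the same number correlated at 0.248 on average after removing group means, against −0.0822 for different numbers. The 4 numbers gave 0.562, −0.159, 0.32 and 0.269, and 6 of 8 libraries correlated best with their own number, a hint from the data and not from the design. Depth followed the number in both genotypes, from 30143949 to 43624180 in mice 1 and 2 and from 16818087 to 20568337 in mice 3 and 4.

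The medians of the clock repressor and both activity-induced lists stayed below 0 in every alternative, and that of the factors was −0.244 in the 5 libraries with choroid plexus RNA. With the choroid plexus covariate the medians were −0.194 for clock repressors and outputs, −0.209 for factors and −0.146 for effectors. With single libraries left out, the training interaction count ranged from 0 to 63 (DESeq2 gave 1 with all libraries), the shares of the same sign from 80% to 92% for MWM and from 56% to 93% for the homecage, and the matching counts at an unadjusted p under 0.05 from 17 to 41 and from 12 to 51. Genes near 0 turned sign. *Ep300* ranged from −0.0019 to 0.070, *Cry1* from −0.048 to 0.076, *Tef* from −0.034 to 0.0062 and *Arc* from −0.13 to 0.0057, and *Cry1* was −0.087 in the 5 libraries with choroid plexus RNA.

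With 4 mice per group, depths from 16818087 to 43624180 and a median SE of 0.0746, a difference that was not called is not shown to be absent. The libraries are bulk dorsal hippocampus at a single time after training, from mice labelled male, and the deposited counts do not say how reads on overlapping genes were assigned.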
